A study of Mus musculus with 6 samples.

Results

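The genes described here encode transcription factors that meet at composite DNA sites in activated lymphocytes. They are the BATF and AP-1 factors Batf, Batf3, Jun, Junb, Jund, Fosl2 and Maf, the interferon regulatory factors Irf4 and Irf8, and the ETS factor Spib. They were found by symbol in the deposited table, where all 10 had a single row each among 41095 genes. With acetate, Spib, Fosl2 and Batf fell while Jund, Irf4 and Irf8 rose, and Jun, Junb and Batf3 did not pass the test. Maf was at a low level in every library and was left out of the main test.

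The libraries came from wild-type mouse CD8+ T cells, the killer lymphocytes, of spleen, purified by positive magnetic selection and stimulated in culture. There were 3 libraries of cells given acetate and 3 of cells with no treatment. Acetate, a short-chain fatty acid, was on the cells for 48 h. Its dose is taken to be 5 mmol/L, the labels writing the unit oddly. All cells were grown for 72 h with 30 U/mL IL-2 on plates coated for 24 h with antibodies that engage the T cell receptor (anti-CD3, 5 µg/mL) and its costimulator (anti-CD28, 2 µg/mL). The culture protocol gives all 6 libraries the same 72 h, and the labels do not say when acetate was added. The stated design sets cells after treatment against cells before it, and whether control cells were taken at the same time as acetate cells is not stated further. Nor do they say whether libraries came from separate mice or cultures, so p-values measure the spread between these libraries, which may be technical.

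AP-1 factors are dimers of basic leucine zipper proteins of the JUN, FOS and related families, and T cell receptor and costimulator signals are classical inducers of them. BATF and BATF3 are short members that pair with a JUN protein and carry no activation domain of their own. IRF4 and IRF8 bind DNA weakly alone and are recruited beside a partner, either a BATF and JUN dimer at AP-1 and IRF composite elements or an ETS factor such as PU.1 or Spi-B at ETS and IRF composite elements. In mouse CD8+ T cells, BATF and IRF4 are known to be needed for effector expansion and for the metabolic shift that goes with it.

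Short motifs were sought on either strand in RefSeq promoter windows (GRCm38.p6, 250 bases before to 50 after a start site), which covered 9 of the 10 genes with 10 windows. A loose form of the AP-1 site with any middle base, TGANTCA, stood in none of the 10 windows, against 7.81% of 32851 windows of the same length. A longer loose form with any middle bases, TGANNTCA, which takes in the CRE and many other letters, stood in the windows of Jun and Jund, against 14.1% of all. The tandem IRF motif, GAAANNGAA, stood in those of Jund and Fosl2, against 8.56% of all. The RefSeq starts of these 2 windows differ from the gene starts in GENCODE M21. The Jund window ends at 70697788, before the GENCODE gene start at 70698949. The Fosl2 window begins at 32136222, inside the GENCODE gene, which starts at 32135801. An ETS motif of the kind bound by PU.1 and Spi-B, GAGGAAGT, stood in none, against 3.20% of all. No matches of different motifs overlapped in these windows, and a match describes the letters and not a bound site. Shown are the windows of the members that changed most, Spib and Fosl2, and of Jun, whose product is known to act on its own promoter. Capitals mark motif matches.
Spib, chr7:44532022-44532321, minus strand: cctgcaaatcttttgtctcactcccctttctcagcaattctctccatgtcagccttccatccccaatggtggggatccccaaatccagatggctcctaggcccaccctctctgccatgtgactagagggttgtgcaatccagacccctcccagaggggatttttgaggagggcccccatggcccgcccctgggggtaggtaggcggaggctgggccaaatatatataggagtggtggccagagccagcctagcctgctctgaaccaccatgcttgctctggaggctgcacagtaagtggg
Fosl2, chr5:32136222-32136521, plus strand: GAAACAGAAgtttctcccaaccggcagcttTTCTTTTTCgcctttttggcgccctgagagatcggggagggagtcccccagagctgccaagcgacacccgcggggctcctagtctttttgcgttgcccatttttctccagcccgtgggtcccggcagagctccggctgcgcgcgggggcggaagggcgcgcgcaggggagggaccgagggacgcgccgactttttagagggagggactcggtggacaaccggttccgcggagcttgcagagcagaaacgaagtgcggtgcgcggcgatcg
Jun, chr4:95052173-95052472, minus strand: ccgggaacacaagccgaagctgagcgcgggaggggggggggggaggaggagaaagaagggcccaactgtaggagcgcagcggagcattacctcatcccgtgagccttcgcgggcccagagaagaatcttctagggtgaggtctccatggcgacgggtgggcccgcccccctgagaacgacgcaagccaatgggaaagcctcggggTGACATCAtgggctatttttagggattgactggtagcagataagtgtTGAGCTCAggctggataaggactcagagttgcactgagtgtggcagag
In the Fosl2 window the IRF matches begin 250 and 220 bases before the start. In the Jun window the TGANNTCA matches begin 45 bases before the start and 2 bases after its first base. The Spib window held no match.

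Values are FPKM, reads scaled by gene length and library depth, as the authors deposited them. From them whole reads could be recovered, 31098394 to 39140711 per acetate library and 32195815 to 35713993 per control library. All tests ran over the 10867 genes that averaged 1 FPKM or more in the 6 libraries, on log2(FPKM + 1) values, with limma and Benjamini-Hochberg adjustment at a threshold of 0.05. The term log2 change means the difference on that scale, acetate minus control. Acetate libraries summed to 365765 to 384438 FPKM and control libraries to 352027 to 363385 FPKM, so the scaling of libraries bears on small changes. Of the genes called, 56.6% were higher with acetate on the deposited scale, 36.4% after rescaling to TPM, where every library has the same total, and 45.3% with voom weights on the recovered reads.

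Of the 10 genes 9 passed the filter on low values. Of those, 6 were called, 3 higher and 3 lower, where 38.9% of all tested genes were called, 22% as higher and 16.9% as lower. The values of the 3 acetate and 3 control libraries did not overlap for 6 of the 10, the same 6 genes, against 51.9% of all tested genes. The median log2 change of the 9 tested was -0.03, beside 0.02 over all tested genes, and the median size of the change without its sign was 0.25, beside 0.15. All 9 averaged more than 5 FPKM, while the tested genes include lower ones, whose changes the log2(FPKM + 1) scale shrinks. The shares and medians over all tested genes are thus not those of genes of like level. Among genes averaging 5 FPKM or more, fitted alone, 3634 of 7665 were called, 2258 higher and 1376 lower. The 6 calls kept their direction and stayed past the threshold when any library was left out.

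**Figure D1:**
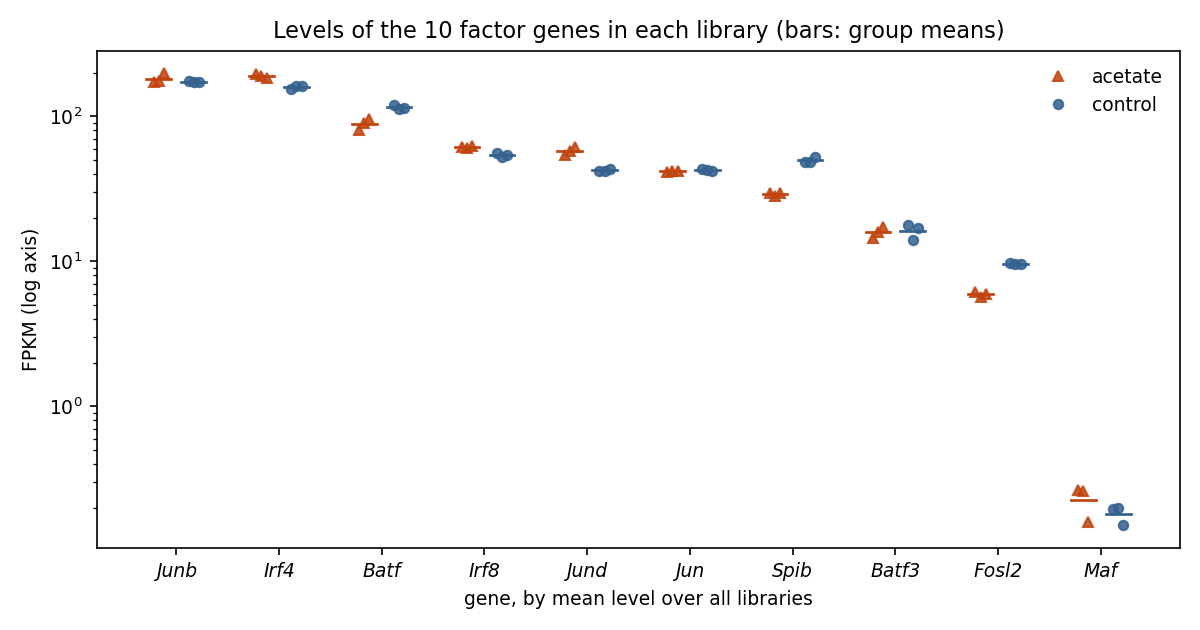
FPKM on a log axis of each gene in each library, with triangles for acetate, circles for control and bars for group means. The groups stand apart for Irf4, Batf, Irf8, Jund, Spib and Fosl2, overlap for Junb, Jun and Batf3, and Maf lies under 0.3 FPKM throughout.

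Batf, the short basic leucine zipper factor that recruits IRF4, had 80.2, 90.4 and 96.0 FPKM in acetate libraries, against 120.5, 113.1 and 114.4 FPKM in control libraries. Every acetate library was below every control library, with the lowest value in acetate replicate 1. The group means were 88.9 ± 8.02 FPKM with acetate and 116.0 ± 3.91 FPKM in control cells (SD, n = 3 each). The log2 change was -0.38 (95% interval -0.54 to -0.23, adjusted p = 0.00378). Batf lies on chromosome 12 from 88974857 to 88998939 on the plus strand in the table's C57BL/6NJ positions.

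Batf3, its close relative, known in mice for its need in the development of CD8-bearing dendritic cells, had 14.6, 15.9 and 17.2 FPKM with acetate, against 17.7, 14.0 and 16.97 FPKM in control cells. The groups overlapped, and the log2 change of -0.03 (95% interval -0.24 to 0.19) did not pass (adjusted p = 0.852). That interval runs from a fall of -0.24 to a rise of 0.19, so a modest change in Batf3 in either direction is not excluded. Summed, Batf and Batf3 held 104.8 ± 9.32 FPKM with acetate and 132.2 ± 5.55 FPKM in control cells, and Batf3 made up 15.2% ± 0.205 of that sum with acetate and 12.2% ± 1.06 in control cells (SD, n = 3 each).

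The JUN proteins are the dimer partners of BATF and of FOS proteins. Jund, the member known for steady expression in resting cells, rose, with 54.3, 57.9 and 61.7 FPKM in acetate libraries, against 42.1, 41.9 and 43.3 FPKM in control libraries. The lowest acetate value lay above the highest control value. The log2 change was 0.44 (95% interval 0.32 to 0.56, adjusted p = 0.000739). Jund lies on chromosome 8 from 73659962 to 73662838.

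Junb, a JUN member induced by stimulation, had 172.9, 175.0 and 198.1 FPKM with acetate, against 175.9, 171.8 and 173.6 FPKM in control cells. Acetate replicate 3 stood above the other 5 libraries, which lay together. The log2 change was 0.06 (95% interval -0.07 to 0.19, adjusted p = 0.404), and its sign turned to -0.01 with TPM, -0.03 with quantile normalization and -0.04 with cyclic loess.

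Jun, the founding AP-1 gene, had 41.2, 41.8 and 42.3 FPKM with acetate, against 43.6, 42.6 and 42.1 FPKM in control cells. The values overlapped, and the log2 change of -0.03 (95% interval -0.11 to 0.05) did not pass (adjusted p = 0.474). It passed as lower after rescaling to TPM, at a log2 change of -0.11 (adjusted p = 0.049), and with cyclic loess, also at -0.11 (adjusted p = 0.0271). An antisense row over Jun, Junos, reached at most 0.731 FPKM, and reads of the 2 strands cannot be told apart since strand handling is not given.

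Summed over Jun, Junb and Jund, acetate libraries held 268.3, 274.8 and 302.1 FPKM and control libraries 261.6, 256.4 and 258.9 FPKM. Jund made up 20.6% ± 0.447 of the sum with acetate and 16.4% ± 0.326 in control cells, Junb made up 64.6% ± 0.951 with acetate and 67.1% ± 0.131 in control cells, and Jun 14.9% ± 0.738 with acetate and 16.5% ± 0.239 in control cells (SD, n = 3 each). The coding transcripts of these 3 genes have a single exon in GENCODE M21, against 3 exons for Batf and for Batf3.

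Fosl2 encodes FRA-2, a FOS family protein that needs a JUN partner to bind DNA. Its level was 6.13, 5.70 and 5.93 FPKM in acetate libraries, against 9.72, 9.64 and 9.61 FPKM in control libraries. The spread within either group was small beside the gap between them. The log2 change was -0.62 (95% interval -0.73 to -0.52, adjusted p = 0.000135), from 1762 to 3386 reads per library. Fosl2 lies on chromosome 5 from 32004578 to 32026626. With voom weights on reads its log2 change was -0.75. That scale does not shrink low genes, and it also scales the libraries differently. It moved the median log2 change of all tested genes by -0.039.

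Irf4, which is induced by T cell receptor signals and is the main IRF partner of BATF in T cells, had 197.1, 191.1 and 184.6 FPKM with acetate, against 155.4, 162.0 and 162.8 FPKM in control cells. All acetate values were higher. The means were 190.9 ± 6.24 FPKM with acetate and 160.1 ± 4.02 FPKM in control cells (SD, n = 3 each), and the log2 change was 0.25 (95% interval 0.16 to 0.35, adjusted p = 0.00277). The call missed the threshold with quantile normalization (log2 change 0.15, adjusted p = 0.0661) and with cyclic loess (0.15, adjusted p = 0.0581). Irf4 lies on chromosome 13 from 29615202 to 29632879.

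Irf8, best known as a factor of dendritic cells, B cells and macrophages and also made by activated CD8+ T cells, had 61.3, 60.6 and 62.5 FPKM with acetate, against 55.7, 52.7 and 54.1 FPKM in control cells. The groups did not overlap, and the log2 change was 0.18 (95% interval 0.10 to 0.26, adjusted p = 0.00697). This smallest of the 6 called changes missed the threshold after rescaling to TPM (log2 change 0.11, adjusted p = 0.0862), with quantile normalization (0.10, adjusted p = 0.0632) and with cyclic loess (0.09, adjusted p = 0.0936). Irf8 lies on chromosome 8 from 128318723 to 128340680.

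Spib, which encodes the ETS factor Spi-B known from B cells and plasmacytoid dendritic cells, had the largest change of the 9 tested genes. It had 29.4, 28.4 and 29.8 FPKM in acetate libraries, against 48.8, 48.2 and 52.4 FPKM in control libraries. The groups stood far apart, with a control mean 1.71 times the acetate mean. The log2 change was -0.75 (95% interval -0.85 to -0.65, adjusted p = 9.16e-05). Spib lies on chromosome 7 from 46960401 to 46966480 on the minus strand, where it overlaps Mybpc2 on the same strand, a row at 0.766 FPKM with acetate and 1.19 FPKM in control cells.

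Maf, a large MAF factor that drives Il10 in several T cell types, had 0.264, 0.259 and 0.158 FPKM with acetate, against 0.196, 0.198 and 0.151 FPKM in control cells. That is 40 to 85 reads per library, under the filter of 1 FPKM. The values overlapped, and without the filter the log2 change of 0.05 did not pass (limma adjusted p = 0.549).

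**Figure D2:**
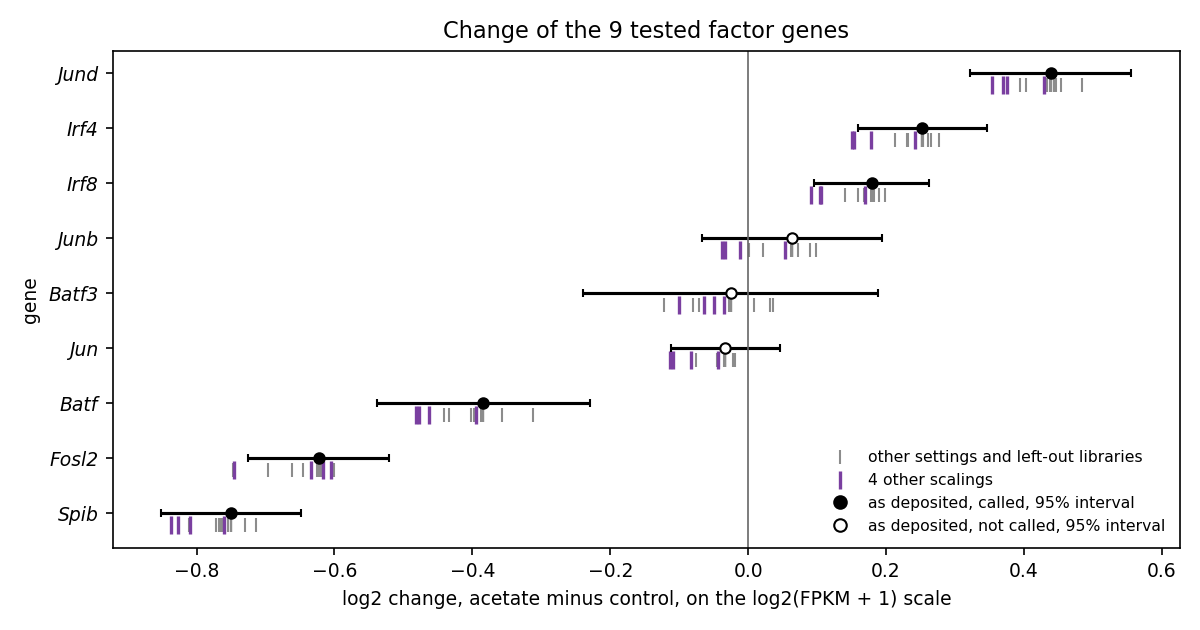
Log2 change, acetate minus control, of the 9 tested genes with 95% intervals, filled where called, and below each the values under other settings (purple for 4 other scalings, grey for the rest). The called genes stay on their side of 0 under all of them, while Junb and Batf3 have values on either side.

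The order of the levels also differed between the groups, read per length of gene. With acetate, Irf4 and Junb came first and their values overlapped, followed by Batf, then Irf8 and Jund, which overlapped, then Jun, Spib, Batf3, Fosl2 and Maf. In control cells Junb came before Irf4, with no overlap, followed by Batf, Irf8, Spib, Jun and Jund, and only Jun and Jund of the neighbours overlapped. Jund thus stood above Jun and Spib with acetate and below Spib, level with Jun, in control cells. The 3 most abundant genes were the same in each group, and Irf4 averaged more than 97.5% of all tested genes.

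Ratios between members within a library do not change when a library is scaled by a single factor, as in TPM, but can under quantile normalization or cyclic loess. The ratio of Irf8 to Irf4 was 0.322 ± 0.0143 with acetate and 0.339 ± 0.0173 in control cells, with overlapping values (exact two-sided permutation p = 0.3). The ratio of Batf3 to Batf was 0.179 ± 0.00284 with acetate and 0.140 ± 0.0137 in control cells. The ratio of Jun to Jund was 0.723 ± 0.0360 with acetate and 1.01 ± 0.0339 in control cells. The ratio of Junb to Jund was 3.14 ± 0.103 with acetate and 4.10 ± 0.0878 in control cells. The ratio of Fosl2 to Jund was 0.103 ± 0.00911 with acetate and 0.228 ± 0.00494 in control cells (SD, n = 3 each throughout). In the last 4 ratios the groups did not overlap, and each had an exact permutation p = 0.1, the smallest that 3 against 3 libraries allow, and p = 0.125 adjusted over the 5 ratios, so none could pass 0.05. The log2 difference in the ratio of Fosl2 to Jund was -1.15, the largest of the 5.

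**Figure D3:**
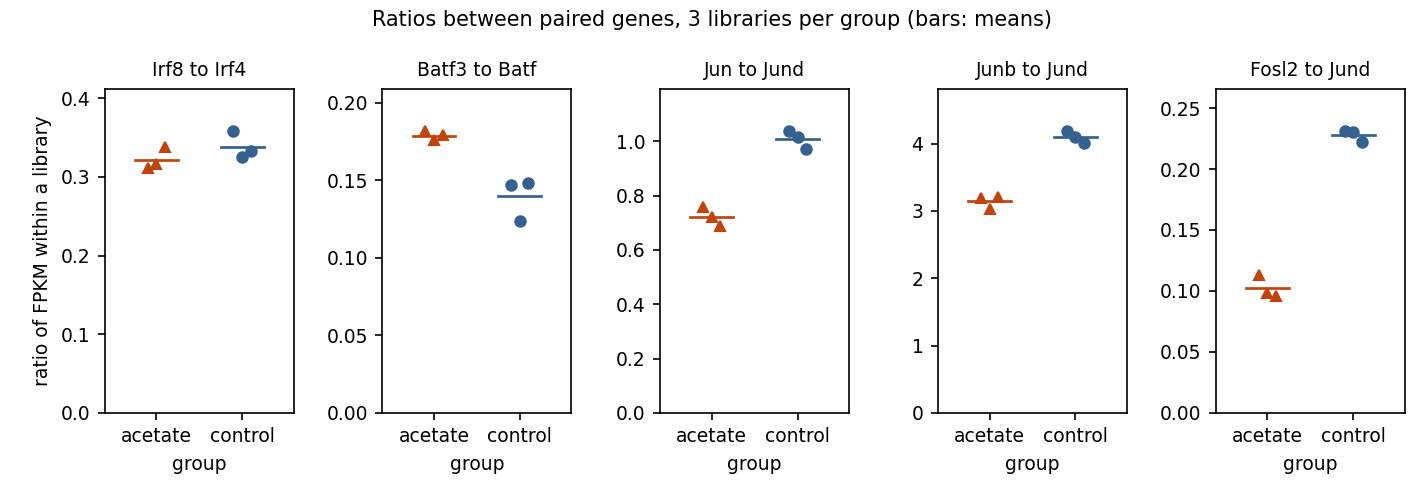
Ratio of the FPKM of 2 genes within each library, acetate left and control right, with bars for group means. The groups overlap for Irf8 to Irf4 and stand apart for the other 4 ratios, most for Fosl2 to Jund at 0.103 with acetate and 0.228 in control cells.

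Related genes were counted over 7 lists, to be read against the 38.9% called among all tested genes and their median log2 change of 0.02. The lists, like the members, were chosen with earlier results of these data known, so their counts are descriptions and not independent tests. Among relatives of AP-1, the small MAF factors and the BACH repressors, 1 of 9 tested rose and 3 fell, with a median log2 change of -0.02. Atf3, a stress-induced partner of JUN, fell to 11.1 ± 0.453 FPKM with acetate, against 15.9 ± 0.724 FPKM in control cells (log2 change -0.48, adjusted p = 0.000510). Bach2, which competes with AP-1 for its sites in T cells, fell to 13.4 ± 1.04 FPKM, against 18.3 ± 1.01 FPKM in control cells. Mafg, a small MAF protein that partners BACH and CNC factors, fell to 12.4 ± 0.261 FPKM, against 16.1 ± 0.974 FPKM in control cells. Mafk, another small MAF, rose to 13.9 ± 0.691 FPKM, against 11.9 ± 0.821 FPKM in control cells (adjusted p = 0.0306), a call lost without acetate replicate 1 (adjusted p = 0.0721), acetate replicate 3 (adjusted p = 0.0856) or control replicate 3 (adjusted p = 0.084), after TPM (adjusted p = 0.116) and with no filter on low values (adjusted p = 0.0827). Other FOS family genes were named after their values were seen. Fos was at 1.06 ± 0.119 FPKM with acetate and 1.38 ± 0.619 FPKM in control cells, and Fosl1 at 10.2 ± 0.639 FPKM with acetate and 10.4 ± 1.20 FPKM in control cells, neither passing (adjusted p = 0.476 and 0.877). Batf2, the other BATF gene, held no reads in any library.

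Of 8 other tested IRF and IRF2-binding genes 3 fell, and the median log2 change was -0.11. Irf2 fell to 20.2 ± 0.423 FPKM, against 26.4 ± 0.401 FPKM in control cells (adjusted p = 0.00041). Irf5 fell to 26.6 ± 1.45 FPKM, against 33.1 ± 1.27 FPKM in control cells. Irf1, an interferon-induced activator, fell to 15.1 ± 0.175 FPKM, against 17.7 ± 0.314 FPKM in control cells. Of 15 tested ETS family genes 2 rose and 3 fell, with a median log2 change of -0.04. Fli1 rose to 17.8 ± 0.564 FPKM, against 13.8 ± 0.489 FPKM in control cells (adjusted p = 0.00107), and Erf, an ETS repressor, rose to 6.47 ± 0.272 FPKM, against 5.42 ± 0.114 FPKM in control cells, a call lost with TPM (adjusted p = 0.0503). Elk3 fell to 20.3 ± 0.693 FPKM, against 25.3 ± 0.261 FPKM in control cells, Elk4 to 11.4 ± 0.769 FPKM, against 14.5 ± 0.570 FPKM, and Etv5 to 0.970 ± 0.0816 FPKM, against 1.68 ± 0.0475 FPKM. Spi1, which encodes PU.1, the closest relative of Spi-B, reached at most 8 reads in a library and was named after its values were seen.

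NFAT proteins are released to the nucleus by calcineurin and bind with AP-1. Of 10 tested genes of the list 2 rose and 3 fell, with a median log2 change of 0.04. The calcineurin subunit genes divided. Ppp3ca rose to 5.99 ± 0.0359 FPKM, against 4.52 ± 0.0435 FPKM in control cells, and Ppp3r1 to 63.5 ± 1.55 FPKM, against 56.8 ± 1.88 FPKM. Ppp3cb fell to 20.8 ± 0.678 FPKM, against 26.1 ± 0.445 FPKM in control cells, and Ppp3cc to 71.6 ± 3.01 FPKM, against 84.6 ± 1.92 FPKM. Nfat5 fell to 24.4 ± 3.23 FPKM, against 29.3 ± 1.31 FPKM in control cells (adjusted p = 0.0442). That call held without acetate replicate 1 but not without any other single library (adjusted p = 0.0722 to 0.126). The call of Ppp3r1 was lost without acetate replicate 2 (adjusted p = 0.0658) or control replicate 1 (adjusted p = 0.0542), and under 3 other scalings, with adjusted p = 0.174 after TPM, 0.178 after quantile normalization and 0.225 after cyclic loess.

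MAP kinases raise the making and activity of AP-1 proteins. Of 18 tested kinases of the list 4 rose and 5 fell, with a median log2 change of -0.07, but none of the 4 rises passed by limma with TPM, quantile normalization or cyclic loess. Without acetate replicate 2, control replicate 1 or control replicate 3 the rises numbered 1 each, and the falls 2, 3 and 3. Mapk11, a p38 kinase gene, fell to 2.69 ± 0.117 FPKM, against 4.57 ± 0.140 FPKM in control cells (adjusted p = 0.000422). Mapk3, which encodes ERK1, fell to 22.8 ± 1.14 FPKM, against 27.0 ± 1.33 FPKM in control cells. Map3k8 fell to 29.6 ± 0.743 FPKM, against 33.6 ± 1.38 FPKM in control cells, lost without acetate replicate 2 (adjusted p = 0.0570) or control replicate 3 (adjusted p = 0.0542). Map3k7, which encodes TAK1, rose to 30.4 ± 0.964 FPKM, against 27.0 ± 0.347 FPKM in control cells.

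Of 10 dual-specificity phosphatase genes, several of whose products switch MAP kinases off, 1 rose and 3 fell, with a median log2 change of -0.04. Dusp4 fell to 35.0 ± 0.551 FPKM, against 46.0 ± 0.479 FPKM in control cells (adjusted p = 0.000257), and Dusp14 to 1.65 ± 0.336 FPKM, against 3.05 ± 0.494 FPKM. Dusp1 fell to 4.84 ± 0.633 FPKM, against 6.02 ± 0.249 FPKM in control cells (adjusted p = 0.0356). Dusp7 rose to 5.82 ± 0.536 FPKM, against 4.22 ± 0.896 FPKM in control cells (adjusted p = 0.0407). The call of Dusp1 was lost without any library but acetate replicate 3 (adjusted p = 0.0553 to 0.0979), and that of Dusp7 without any but control replicate 2 (adjusted p = 0.0503 to 0.110).

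The last list held genes reported to depend on BATF, IRF4 or MAF in T cells. Of its 19 tested genes 5 rose and 9 fell, or 73.7% called, with a median log2 change of -0.13. Only the 4 genes of lowest p are named here, and all 4 fell. Nfil3, a basic leucine zipper repressor, fell to 16.2 ± 0.625 FPKM with acetate, against 25.8 ± 1.62 FPKM in control cells (adjusted p = 0.000245). Ccr6, a chemokine receptor gene, fell to 25.2 ± 1.37 FPKM, against 39.7 ± 2.59 FPKM in control cells (adjusted p = 0.000363). Tigit and Ctla4, inhibitory receptor genes, had log2 changes of -0.58 and -0.46. The list mixes genes that the factors raise and genes that they hold down, so its count gives no direction for their activity.

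**Figure D4:**
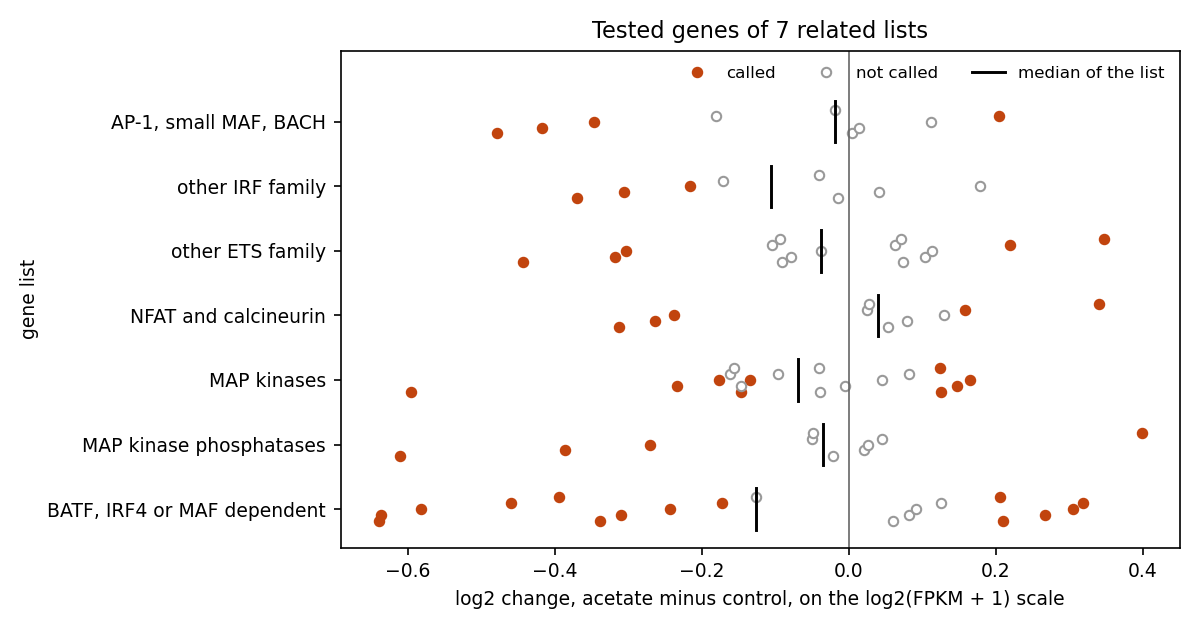
Log2 change, acetate minus control, of each tested gene in 7 related lists, filled where called, with a bar at the median of the list. Called genes lie on either side of 0 in 6 lists and below 0 only among the other IRF genes.

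Spib, Irf8 and Batf3 are also markers of B cells and dendritic cells, and some dendritic cells carry CD8. In bulk RNA, fewer cells of a type and less RNA per cell cannot be told apart. All 12 listed CD8 T cell genes passed the filter and 5 of them rose, or 41.7% called, beside 38.9% of all tested genes called and 22% called higher. Among the most abundant CD8 T cell genes, Cd8a rose to 352.1 ± 12.3 FPKM, against 308.4 ± 1.57 FPKM in control cells (limma adjusted p = 0.00864). Cd3g rose to 336 ± 18.3 FPKM, against 283.5 ± 2.85 FPKM in control cells (limma adjusted p = 0.00656). Cd8b1 was lower in every acetate library, at 300.8 ± 10.1 FPKM with acetate and 321.2 ± 11.8 FPKM in control cells, and did not pass (adjusted p = 0.139). The sum of the list was 1733.4 to 1865 FPKM with acetate and 1633 to 1678 FPKM in control cells. The 12 B cell genes summed to 17.98 to 20.1 FPKM with acetate and 19.0 to 20.6 FPKM in control cells, nearly all of it Cd79b at 17.2 FPKM with acetate and 17.1 FPKM in control cells, and the defining genes Ms4a1 and Pax5 held at most 10 and 14 reads in any library. Below the filter, Fcer2a and Ebf1 were lower in every acetate library than in any control library, while the other 10 genes overlapped. Fcer2a had 0.514 ± 0.0545 FPKM with acetate and 1.10 ± 0.228 FPKM in control cells, with at most 96 reads. Ebf1 had 0.114 ± 0.0252 FPKM with acetate and 0.189 ± 0.0307 FPKM in control cells, with at most 73 reads.

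Of 9 listed conventional dendritic cell genes in the table, summed, acetate libraries held 3.44 to 4.22 FPKM and control libraries 5.11 to 6.11 FPKM. Their most abundant members were Naaa, at 2.03 FPKM with acetate and 2.43 FPKM in control cells, and Zbtb46, which fell to 1.181 ± 0.119 FPKM, against 2.16 ± 0.0704 FPKM in control cells. Clec9a reached 4 reads at most and Cd209a none. Below the filter, Clec10a was lower in every acetate library, with at most 45 reads. It had 0.213 ± 0.0453 FPKM with acetate and 0.407 ± 0.0792 FPKM in control cells. The other genes of the list below the filter overlapped. Of the 8 plasmacytoid dendritic cell genes Siglech was at 0 in every library, and their sum of 193.5 to 229.0 FPKM with acetate and 186.7 to 199.6 FPKM in control cells was mostly Bst2, an interferon-induced gene of many cells. Runx2 and Cox6a2 of that list fell, to 10.6 and 1.32 FPKM with acetate, against 14.0 and 3.40 FPKM in control cells. Pacsin1 had 6.90 FPKM with acetate and 6.98 FPKM in control cells and did not pass (adjusted p = 0.812). Below the filter, Ccr9 was higher in every acetate library, with a mean of 0.884 FPKM with acetate and 0.215 FPKM in control cells, and Tcf4 lower, with 0.0691 FPKM with acetate and 0.165 FPKM in control cells. The 9 macrophage and monocyte genes in the table summed to 11.1 to 12.1 FPKM with acetate and 10.4 to 11.2 FPKM in control cells, mostly Cd68. Csf1r held 6 reads or fewer, Adgre1 14 or fewer and Clec4a1 0. Adgre1 was lower in every acetate library, at 0.0193 FPKM with acetate and 0.0955 FPKM in control cells. The other genes of that list overlapped.

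The 4 CD4 T cell genes summed to 16.3 to 17.4 FPKM with acetate and 21.3 to 22.4 FPKM in control cells, where Zbtb7b fell to 7.12 FPKM with acetate, against 13.0 FPKM in control cells. Cd40lg had 8.78 FPKM with acetate and 8.28 FPKM in control cells, and Cd4 0.944 FPKM with acetate and 0.641 FPKM in control cells. The 4 natural killer cell genes in the table summed to 84.2 to 91.2 FPKM with acetate and 143.7 to 150.9 FPKM in control cells. Nearly all of it was Gzma and Eomes, which CD8+ T cells also make, while Ncr1 and Klrb1c held at most 6 reads each. Gzma fell to 45.0 FPKM with acetate, against 107.3 FPKM in control cells (limma adjusted p = 7.35e-05). Eomes had 42.5 FPKM with acetate and 40.5 FPKM in control cells and did not pass (adjusted p = 0.209). The part of cells other than CD8+ T cells in the changes of Spib, Irf8 and the other factor genes was not tested.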

How the data were processed

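RNA of 3 acetate and 3 control libraries was sequenced as paired ends, per the labels' protocols. The authors deposited FPKM per gene. Tools named by the submitters' processing notes are cutadapt 1.18 and HISAT2 2.1.0, with the build mm10. Positions and gene identifiers are the table's own, of the C57BL/6NJ strain annotation. How reads were counted, and whether by strand, is not given in the sources used here. Gene length, deposited by the authors in bases, gave reads as FPKM times length over a single step per library, and 100% of values were whole within 0.01 reads. Of values up to 40 reads, 64.2 to 65.7% were even, so read pairs may have been counted as 2 reads.

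Genes averaging 1 FPKM or more were tested as log2(FPKM + 1) with limma 3.58.1 in R 4.3.3 (abundance trend, group as the only term, two-sided, Benjamini-Hochberg). Values given as ± are SDs. Ratios were tested by exact permutation (SciPy 1.17.1). The fit was tested on simulated data. Some 18 alternative settings were run. The members, gene lists and rules were chosen with earlier results of these data known. Named genes were all members, the called genes of each related list (the 4 of lowest p where over 5 were called), and the most abundant markers of each cell type. Other markers, those near 0 reads and those below the filter whose groups did not overlap, were named after their values were seen. So were Cd8a, Cd3g and Cd8b1. The motifs were chosen after the files were seen.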

Additional observations from a re-analysis of the deposited data

How the results depend on the processing

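Under the 12 other settings the count of members called lower was 3 or 4, and the count called higher 1 to 3. It was 1 with quantile normalization and 1 with cyclic loess. Leaving out each library in turn left 3 higher and 3 lower each time, with 3069 to 3987 genes called in all, against 4229 with all libraries. Of the genes in the 7 related lists, 33 to 40 were called when a library was left out, against 44. Over all alternatives the MAP kinase list had 0 to 4 higher (4 as reported) and 2 to 9 lower (5), the ETS list 1 to 2 higher (2) and 2 to 7 lower (3), the NFAT list 1 to 2 higher (2), the BATF, IRF4 or MAF dependent list 3 to 5 higher (5), and the AP-1 relatives, phosphatases and other IRF genes 0 to 1 higher each (1, 1 and 0). Batf, Spib, Jund and Fosl2 kept their call under all 18 alternatives. Junb, never called, turned to -0.01217, -0.03296 and -0.03855 (log2) with TPM, quantile normalization and cyclic loess. Batf3, never called, ran from -0.121 to 0.0367 with a library left out, above 0 without acetate replicate 1, control replicate 1 or control replicate 3. The cause was not tested. With a library left out, the log2 difference in ratio ran from -0.108 to -0.0310 for Irf8 to Irf4, 0.277 to 0.406 for Batf3 to Batf, -0.517 to -0.445 for Jun to Jund, -0.401 to -0.356 for Junb to Jund and -1.23 to -1.11 for Fosl2 to Jund. Whether same-numbered libraries shared more than the number is not stated. The correlations of their deviations were -0.0537, 0.0258 and -0.0389. With the number as a replicate block 3600 genes, 3 members higher and 3 lower were called. Maf, at 40 to 85 reads, was under the filter and was tested only without it.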
